A study of Mus musculus with 9 samples.

Results

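The carboxylesterase family of the mouse liver was examined as 10 genes taken by their symbols: Ces1c, Ces1d, Ces1e, Ces1f, Ces1g, Ces2a, Ces2c, Ces2e, Ces3a and Ces3b. They are 10 of the 20325 gene rows of each table and 10 of 17 rows that carry a Ces symbol, and all 10 passed the filter on low counts. Messenger RNA of whole liver was sequenced in male C57BL/6J mice fed chow, in 3 groups of 3 samples. GF mice were kept germ-free, GF+SCFA mice were germ-free with short-chain fatty acids in their drinking water (acetate at 67.5 mM, propionate at 25.9 mM and butyrate at 40 mM), and ConvD mice started germ-free and received donor cecal contents in a single gavage. The donors were conventionally raised mice of the same strain, so the ConvD group was colonised as adults, for 4 weeks. The submitters' texts give 2 ages, 14 weeks in the design and 19 weeks at dissection in the protocol, with the gavage at 15 weeks. Cages were shared only by mice of one colonisation status, so cage and colonisation cannot be told apart. The samples carry no cage label, so cage cannot be separated from the fatty acid water either. The design text calls the samples biological replicates without naming animals, so the tests rest on the spread among these libraries, which may in part be technical.

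Carboxylesterases are serine hydrolases that cleave esters, amides and thioesters, among them drugs, pesticides and the acyl esters of lipids. Most carry a short tail that keeps them in the lumen of the endoplasmic reticulum, where liver holds large amounts of them. Enzymes of the Ces1 group prefer substrates with a large acyl part, those of the Ces2 group substrates with a large alcohol part, and the nuclear receptors PXR and CAR are known to control several of these genes. In the mouse the genes lie in tandem on chromosome 8. In the annotation of GRCm38.p6, Ces1a to Ces1h and Ces5a form one cluster, and the Ces2, Ces3 and Ces4a genes form the other.

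Ces2a and Ces2e were the members that passed the test as higher in colonised livers, and Ces2c, which lies between them, did not pass. The sequence before the start site is therefore shown for these 3 genes. Each is the 250 bases upstream of the RefSeq start in GRCm38.p6, 5′ to 3′ on the plus strand, in the order of the chromosome. Ces2a lies at chr8:104733753-104734002, Ces2c at chr8:104846818-104847067 and Ces2e at chr8:104926010-104926259. Capitals mark runs of at least 12 bases that the windows of Ces2a and Ces2e share.
Ces2a: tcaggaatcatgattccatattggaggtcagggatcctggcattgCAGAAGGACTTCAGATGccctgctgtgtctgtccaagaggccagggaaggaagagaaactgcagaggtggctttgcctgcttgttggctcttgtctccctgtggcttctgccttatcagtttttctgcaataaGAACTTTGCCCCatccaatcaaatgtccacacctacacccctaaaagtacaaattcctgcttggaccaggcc
Ces2c: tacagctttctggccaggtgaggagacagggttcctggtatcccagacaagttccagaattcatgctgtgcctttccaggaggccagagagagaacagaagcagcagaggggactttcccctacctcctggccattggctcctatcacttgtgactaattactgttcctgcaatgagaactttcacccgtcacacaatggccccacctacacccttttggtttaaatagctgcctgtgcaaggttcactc
Ces2e: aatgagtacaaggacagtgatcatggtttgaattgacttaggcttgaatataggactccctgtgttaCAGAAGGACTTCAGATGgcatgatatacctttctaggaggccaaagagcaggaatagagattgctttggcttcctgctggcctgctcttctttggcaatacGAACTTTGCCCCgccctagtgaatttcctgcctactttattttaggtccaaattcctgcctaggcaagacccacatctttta
The longer run, CAGAAGGACTTCAGATG, lay at -205 to -189 from the start of Ces2a and at -183 to -167 from that of Ces2e. It was in 2 of 32851 RefSeq windows of this length, these 2. The shorter run, GAACTTTGCCCC, lay at -72 to -61 in Ces2a and at -82 to -71 in Ces2e, and was in 3 of 32851 windows, the third being that of Gm15638. Both runs were picked because these 2 windows share them, so their presence in both was fixed before the count. Whether they bear on the level of either gene was not tested. Ces2c has neither run whole. Over the whole window Ces2a was nevertheless closer to Ces2c (64.6% identical bases) than to Ces2e (53.2%). RefSeq windows were found for 7 of the 10 members. Ces1d, Ces1f and Ces3a were not matched.

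Short motifs were searched on both strands of the 7 windows as a description of their letters. TTGCNNAA, a form of the C/EBP palindrome, was in Ces1c, Ces2a and Ces2e and in 9.56% of all windows. AGGTCA, a half-site of nuclear receptors, was in Ces2a alone of the 7 and in 14.0% of all windows. CCAAT was in 5 of 7 (Ces1c, Ces1g, Ces2a, Ces2c and Ces3b) and in 33.9% of all. TATAAA was in Ces1g and Ces3b (12.4% of all), and GTTAAT, an HNF1 half-site, in Ces3b (6.43% of all). Of the remaining motifs, AGTTCA, another nuclear receptor half-site, was in 0 of 7 and in 11.8% of all. GCGTG, the core of the aryl hydrocarbon receptor site, was in 0 of 7 and in 28.2% of all. The core of the antioxidant response element was in 0 of 7 and in 10.2% of all windows, searched as TGACNNNGC.

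Each library held 18193071 to 21627696 expected counts, and the 10 members took 0.757% to 0.828% of them. Of the 7 hepatocyte markers found, all were tested, and their summed level ranged from 96047 to 126670 CPM (counts scaled to a common library size with edgeR's TMM factors) over the 9 livers. Of the 6 intestinal markers Cdx2, Sis and Muc2 were at 0 in all 9, while the sum of the list was 62.9 to 103 CPM, most of it Fabp2 (57.2 to 95.2 CPM). Of the 6 pancreatic markers Prss1, Pnlip and Amy2a5 were at 0 in all 9, and Cela1 was at 15.0 to 25.6 CPM. Of the 5 adipocyte markers Adipoq, Plin1 and Lep were at 0 in all 9, and Cfd and Fabp4 were detected. No pair of samples of a group agreed within sampling noise. A pair of libraries stood apart from their groups. GF replicate 3 had a chi-square per degree of freedom of 54.4 and 40.6 against the other GF livers, which gave 15.3 between themselves. ConvD replicate 3 had 51.1 and 34.2 against the other ConvD livers, which gave 21.4 between themselves. On the CPM scale GF replicate 3 was the lowest of all 9 livers in Ces2c, Ces2e, Ces3a and Ces3b. For Ces2e, leaving out GF replicate 3 gave a log2 fold change of ConvD against GF of 0.79 and leaving out ConvD replicate 3 gave 0.91, and for Ces2a they gave 0.36 and 0.41, all called.

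The transcripts of the family spanned a wide range. Per transcript length, in TPM units (transcripts scaled to a common total), the order of the means over 9 livers was Ces1c (2040.3), Ces3a (1921), Ces1d (712), Ces3b (473), Ces1f (394), Ces2a (257), Ces1g (235), Ces1e (153), Ces2e (131) and Ces2c (87.0). Ces1c, a secreted esterase of mouse plasma, stood at rank 55 among all genes and was 23.5-fold above Ces2c, an acylcarnitine hydrolase. The ranges of neighbours overlapped for Ces1c and Ces3a, Ces3b and Ces1f, Ces2a and Ces1g, Ces1e and Ces2e, and Ces2e and Ces2c. Ces3b was above Ces1f in each of the 9 livers, although the ranges touched. Over the 9 livers the coefficient of variation of TPM was 35.4% for Ces2e, 20.8% for Ces2a, 18.5% for Ces2c and 18.01% for Ces1d. For the other 6 members it was 5.87% to 9.74%.

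**Figure D1:**
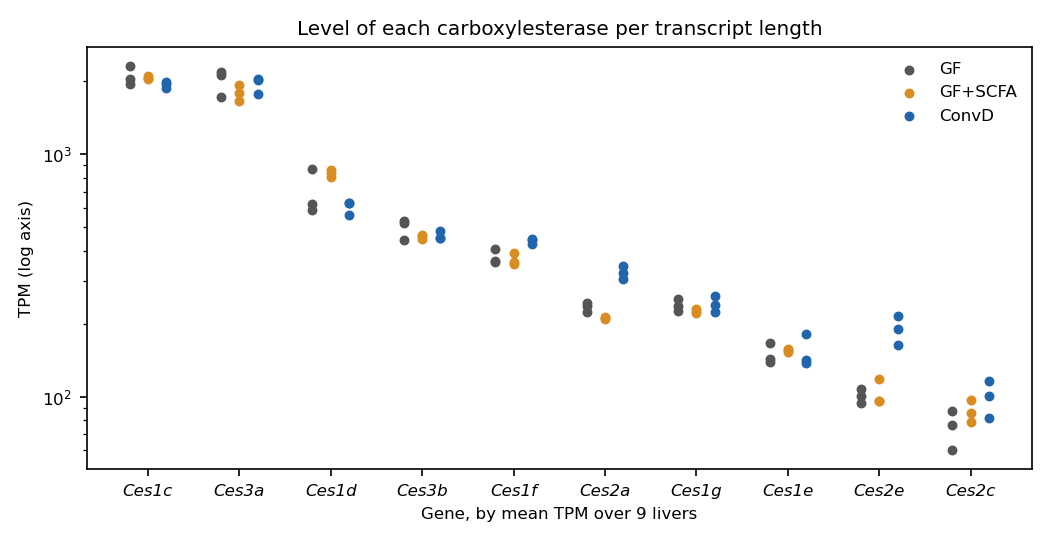
TPM of each of the 10 carboxylesterases (log axis) in every liver, 3 points per group, with genes ordered by their mean over 9 livers. Ces1c (mean 2040.3 TPM) and Ces3a (1921 TPM) lie at the top, and for Ces1f, Ces2a and Ces2e all 3 ConvD points lie above both germ-free groups.

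The Ces2 genes encode hydrolases of drugs and other esters, and the ones called in colonised livers were Ces2e and Ces2a, both named pyrethroid hydrolases in the annotation. Ces2e was at 125, 148 and 122 CPM in GF livers, at 129, 151 and 128 CPM in GF+SCFA livers and at 255, 239 and 214 CPM in ConvD livers. All 3 ConvD livers were above all 6 germ-free livers, and the germ-free groups overlapped. Ces2e rose 1.79-fold in ConvD over GF (log2 fold change 0.84, SE 0.09, 95% interval 0.64 to 1.05, n = 3 each, adjusted p = 0.00018 by edgeR's quasi-likelihood test), at rank 24 of 12037 genes by p. Against GF+SCFA it was 1.73-fold higher in ConvD (log2 fold change 0.79, adjusted p = 0.000153). In whole liver, more RNA per cell and more cells of an expressing type cannot be told apart, here and in the results that follow.

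Ces2a was at 284, 319.9 and 276 CPM in GF, at 273, 263 and 268 CPM in GF+SCFA and at 391, 391 and 381 CPM in ConvD livers. The ConvD livers again lay above all germ-free livers, and each GF+SCFA liver lay below each GF liver. Ces2a rose 1.32-fold in ConvD over GF (log2 fold change 0.40, SE 0.07, interval 0.25 to 0.55, edgeR adjusted p = 0.00321) and 1.45-fold over GF+SCFA (log2 fold change 0.53, adjusted p = 0.000302). The lower level in GF+SCFA than in GF did not pass (log2 fold change -0.13, interval -0.28 to 0.02, adjusted p = 0.48). Both genes kept their calls against GF in 9 of 9 fits without 1 liver, with adjusted p of at most 0.00192 for Ces2e and 0.02 for Ces2a.

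Ces2c was at 112, 100.1 and 70.3 CPM in GF, at 111, 120.0 and 100.4 CPM in GF+SCFA and at 114, 98.1 and 145 CPM in ConvD livers. The 3 groups overlapped, with GF replicate 3 lowest and ConvD replicate 3 highest. The difference of ConvD from GF was 0.34 on the log2 scale with an interval of -0.12 to 0.80 (adjusted p = 0.306), which includes the estimate for Ces2a. It was 0.17 without GF replicate 3 (adjusted p = 0.514) and 0.17 without ConvD replicate 3 (adjusted p = 0.617). For GF+SCFA against GF it was 0.23 (adjusted p = 0.688), and 0.06 without GF replicate 3. Whether Ces2c differed from Ces2a and Ces2e in response was not tested.

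**Figure D2:**
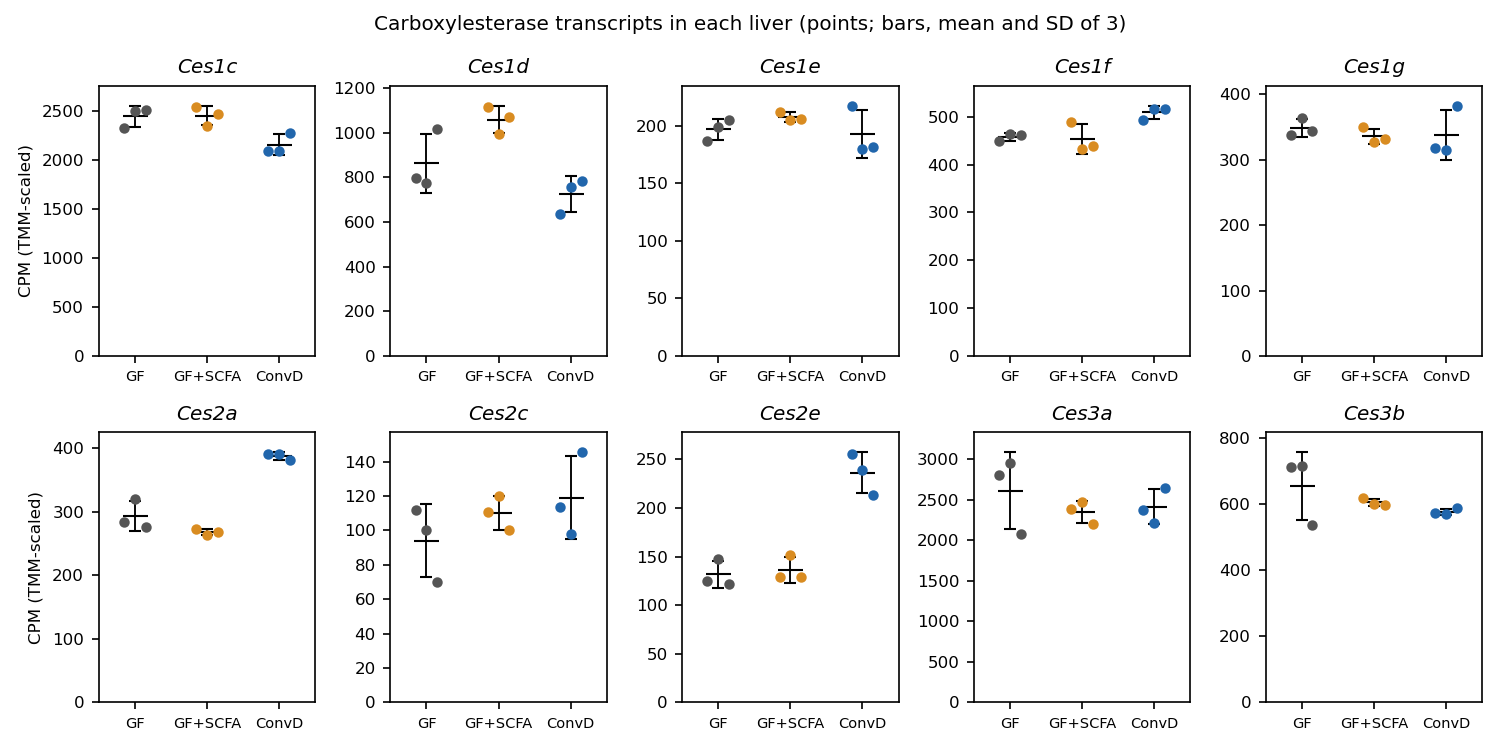
CPM of each of the 10 genes in every liver (points) with the mean and SD of each group (bars, n = 3), each panel on its own axis from 0. The ConvD points of Ces2e (214 to 255 CPM) and Ces2a (381 to 391 CPM) lie above all germ-free points, and those of Ces1d (636 to 784 CPM) lie below all GF+SCFA points.

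In the Ces1 group the gene that differed was Ces1d, the triacylglycerol hydrolase that frees stored lipid for very low density lipoprotein (VLDL). It was at 799.6, 773 and 1015 CPM in GF, at 1115, 994 and 1069 CPM in GF+SCFA and at 636, 758 and 784 CPM in ConvD livers. The ConvD livers were all below the GF+SCFA livers, and the GF livers overlapped with both. Ces1d was 1.46-fold lower in ConvD than in GF+SCFA (log2 fold change -0.55, SE 0.11, interval -0.78 to -0.31, edgeR adjusted p = 0.00431), with the call kept in 9 of 9 fits without 1 liver (adjusted p of at most 0.0213). Neither group differed from GF past the threshold: the log2 fold change was 0.30 for GF+SCFA (interval 0.06 to 0.53, adjusted p = 0.323) and -0.25 for ConvD (interval -0.48 to -0.01, adjusted p = 0.152). Without GF replicate 3, the highest GF liver, GF+SCFA against GF was 0.43 (adjusted p = 0.0464) and ConvD against GF was -0.11 (adjusted p = 0.492). Without ConvD replicate 1 the latter was -0.16 (adjusted p = 0.426).

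Ces1c, first by mean TPM and above Ces3a in 5 of 9 livers on that scale, was at 2326, 2509 and 2511 CPM in GF, at 2546, 2351 and 2470 CPM in GF+SCFA and at 2098, 2099 and 2280.0 CPM in ConvD livers. In CPM every ConvD liver was below every germ-free liver, but the differences did not pass the test (log2 fold change -0.18 against GF, adjusted p = 0.153, and -0.19 against GF+SCFA, adjusted p = 0.123). In TPM the ConvD livers (1871 to 1989) overlapped with the GF livers (1953 to 2313). Ces1f, a relative of Ces1d also described as a triacylglycerol hydrolase, lay the other way. It was at 449, 463 and 461 CPM in GF, at 489.7, 432 and 439.5 CPM in GF+SCFA and at 494, 517 and 517 CPM in ConvD livers. The ConvD livers were above the others without passing (log2 fold change 0.15, adjusted p = 0.172 against GF, and 0.17, adjusted p = 0.121 against GF+SCFA). Against GF+SCFA the call depended on the scaling, since Ces1f passed with upper-quartile factors (adjusted p = 0.0447), library totals (0.0364) and limma on TPM (0.0497).

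Ces1e is egasyn, which holds beta-glucuronidase in the endoplasmic reticulum. Its level was 187 to 205 CPM in GF, 205 to 212 CPM in GF+SCFA and 179.6 to 217 CPM in ConvD livers, with both extremes among the ConvD livers. Ces1g, a liver esterase studied for its effect on lipid, ranged from 337 to 364 CPM in GF, 327 to 349 CPM in GF+SCFA and 315 to 382 CPM in ConvD livers. The differences of ConvD from GF were -0.03 for Ces1e (interval -0.20 to 0.14, adjusted p = 0.845) and -0.04 for Ces1g (interval -0.22 to 0.13, adjusted p = 0.784) on the log2 scale. The sign of both turned with upper-quartile factors and with library totals.

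The Ces3 genes encode abundant esterases of the hepatocyte endoplasmic reticulum. Ces3a was at 2801, 2958 and 2076 CPM in GF, at 2386, 2466 and 2197 CPM in GF+SCFA and at 2379, 2213 and 2642 CPM in ConvD livers. The groups overlapped, and the GF group held both the highest and the lowest of the 9 values. Ces3b was at 711, 714 and 537 CPM in GF, at 617, 601 and 598 CPM in GF+SCFA and at 572, 569 and 587 CPM in ConvD livers. Here too GF replicate 3 was lowest, and the ConvD livers were below the GF+SCFA livers in CPM but not in TPM. The log2 fold change of ConvD against GF was -0.12 for Ces3a (adjusted p = 0.571) and -0.18 for Ces3b (interval -0.39 to 0.02, adjusted p = 0.231). Without GF replicate 3, Ces3b gave -0.30 (adjusted p = 0.0202) and Ces3a -0.25 (adjusted p = 0.11). With each liver left out in turn the value ranged from -0.25 to -0.02 for Ces3a and from -0.30 to -0.12 for Ces3b. For GF+SCFA against GF the values were -0.15 for Ces3a and -0.11 for Ces3b, and -0.29 and -0.23 without GF replicate 3 (adjusted p = 0.162 and 0.144).

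The assignment of reads between near relatives limits some of these values. In GENCODE M21 transcripts the coding sequences of Ces3a and Ces3b were 95.3% identical, and 30.1% and 25.6% of their stretches of 50 bases also occurred in another carboxylesterase of the tables. The split of reads between these 2 genes is therefore the least certain of the set, and their sum the safer value. Ces1c shared 13.4% of its stretches, mainly with Ces1b (88.7% identical in coding sequence), and Ces2c shared 6.66%, mainly with Ces2b (91.3%). For Ces2e the share was 3.30%, for Ces2a 2.29% and for Ces1d 1.28%. Ces2a, Ces2e, Ces3a and Ces3b had 2 transcripts each in the tables. The abundance-weighted length of Ces2e was 2043.8 to 2046 bases in GF, 2039.6 to 2049 in GF+SCFA and 2045 to 2051 in ConvD livers, so the groups overlapped in the mix of transcripts.

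Over the whole set, colonised livers differed from GF livers in 2 of 10 members, both higher and none lower. Of all 12037 genes tested, 12.8% were called in this comparison, 5.93% higher and 6.9% lower. In CPM the groups did not overlap in 4 of 10 members (3 higher, Ces1f, Ces2a and Ces2e, and 1 lower, Ces1c), where 31.6% of all genes did not overlap (15.7% higher, 15.9% lower). The share of members called or separated is thus near that of all genes. The median log2 fold change of the members was -0.04, and that of all genes was 0.00. The median absolute log2 fold change was 0.18 for the members and 0.17 for all genes.

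Short-chain fatty acids in the water called 0 of 10 members by edgeR, where 0.0415% of all genes (5 in number) were called, 0.00831% higher and 0.0332% lower. DESeq2 called 0 members too, and 1 member, Ces1d, had an unadjusted p under 0.05. The groups did not overlap in 1 member (Ces2a, lower) and in 17.9% of all genes (9.06% higher, 8.86% lower). The 95% interval of the log2 fold change reached lowest for Ces3a (-0.41) and highest for Ces2c (0.69) and Ces1d (0.53). A p that missed the threshold does not show that the levels were equal.

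Between ConvD and GF+SCFA livers 3 of 10 members were called, Ces2a and Ces2e higher and Ces1d lower, where 18.4% of all genes were called (9.44% higher and 8.97% lower). In CPM the groups did not overlap in 6 of 10 members (3 in each direction) and in 38% of all genes (19% higher, 18.9% lower). The ConvD livers are those compared with GF above, and the GF+SCFA livers likewise, so the 3 comparisons share samples and are not independent. The median log2 fold change of the members was 0.02, against 0.01 for all genes. Which scaling was used moved the balance of calls over all genes: 46.2% of calls were higher in ConvD than in GF with TMM, 66.1% with upper-quartile factors and 73.1% with library totals (51.3%, 66.8% and 72.4% against GF+SCFA). The calls of Ces2a, Ces2e and Ces1d held in each of 8 other settings of scaling, filter, tool, samples fitted or replicate block.

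**Figure D3:**
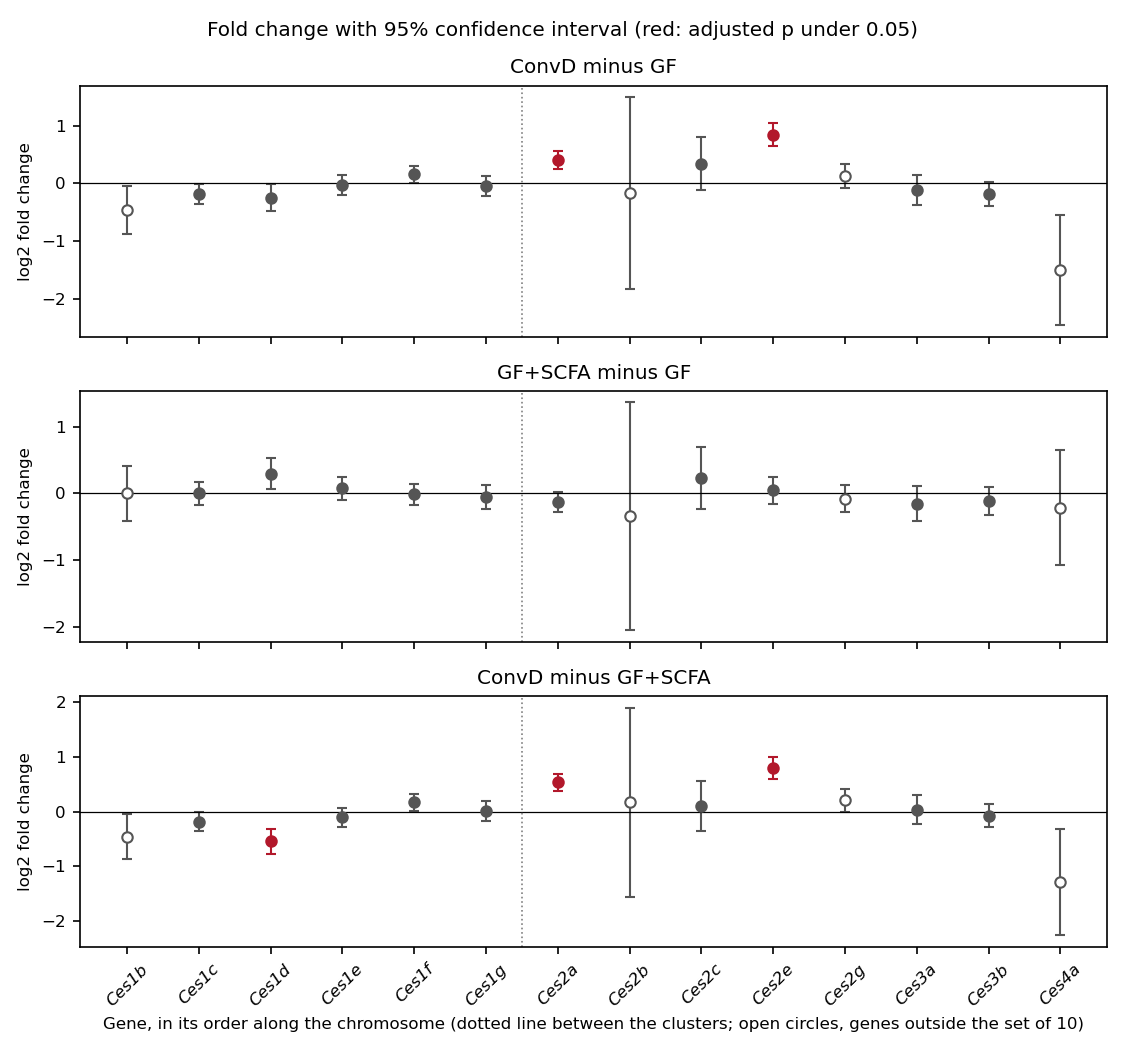
Log2 fold change (points) with its 95% confidence interval (bars) for 14 tested carboxylesterases in chromosome order in the 3 comparisons; filled points are the 10 members, open circles other Ces genes, and red marks an adjusted p under 0.05. Ces2a (0.40) and Ces2e (0.84) are red against GF, no gene is red for GF+SCFA against GF, and Ces1d (-0.55) joins them in the lowest panel.

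Summed over the 10 genes, the level per length overlapped between the groups. The sum was 6483 ± 110 TPM in GF, 6316 ± 164 TPM in GF+SCFA and 6414 ± 245 TPM in ConvD livers (SD, n = 3 each). The 3 Ces2 genes together were at 150% of GF on this scale, with 410.1 ± 15.6 TPM in GF and 402 ± 23.3 TPM in GF+SCFA against 615 ± 41.1 TPM in ConvD livers. Their share of the family sum was 6.06% to 6.67% in the 6 germ-free livers and 9.01% to 10.02% in the ConvD livers, without overlap. The sum of the 5 Ces1 genes was 3564 ± 388, 3660.4 ± 85.3 and 3380.3 ± 62.7 TPM in the same order of groups. That of Ces3a and Ces3b was 2509 ± 294, 2253 ± 146 and 2419 ± 162 TPM. These sums are given without a test, since they hold genes chosen with results known.

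**Figure D4:**
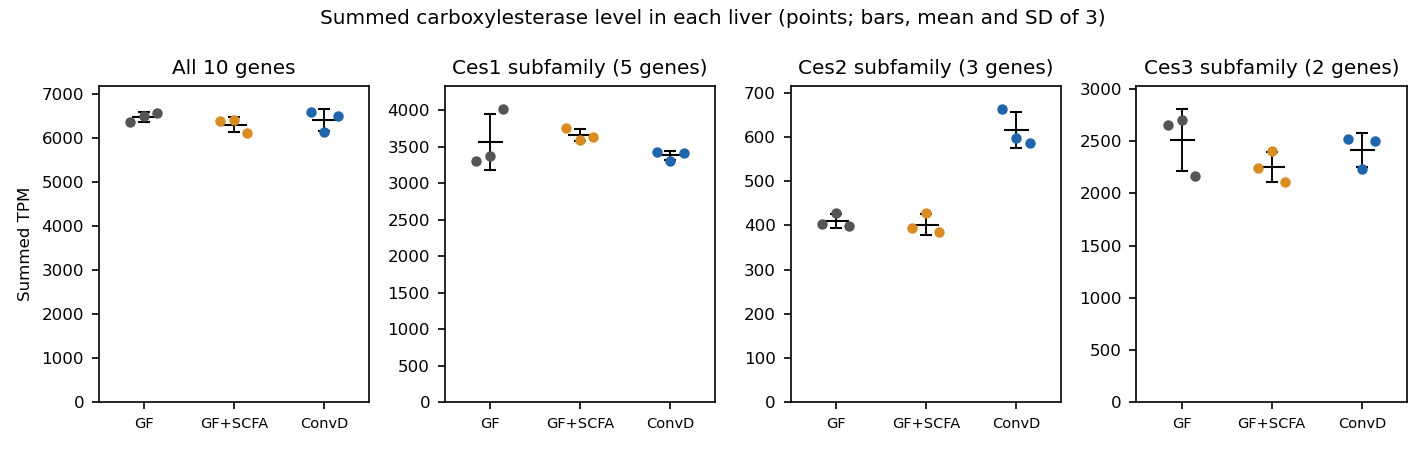
Summed TPM of all 10 genes and of the Ces1, Ces2 and Ces3 genes in every liver (points) with the mean and SD of each group (bars, n = 3), axes from 0. The 3 ConvD points of the Ces2 sum (586 to 662 TPM) lie above the germ-free points (384 to 428 TPM), while the family sum overlaps between all groups.

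The 7 carboxylesterase rows outside the set were lower in level, and 0 of the 4 tested were called in any comparison by edgeR. Ces4a, the last gene of the Ces2 to Ces4a cluster, was at 7.88, 6.68 and 2.91 CPM in GF, at 7.15, 3.77 and 4.14 CPM in GF+SCFA and at 1.65, 2.44 and 2.02 CPM in ConvD livers. All ConvD livers were below all germ-free livers, and the difference from GF missed the threshold (log2 fold change -1.50, SE 0.42, adjusted p = 0.0503). Ces1b averaged 80.8 ± 4.74 CPM among GF livers against 58.8 ± 17.9 CPM among ConvD livers (log2 fold change -0.46, adjusted p = 0.133), with 1 ConvD liver at 79.4 CPM among the GF values. Ces2g, in the same cluster as the Ces2 members, was at 46.5 ± 6.69 and 50.8 ± 3.98 CPM (adjusted p = 0.411), and Ces2b at 1.99 ± 1.40 and 1.71 ± 1.60 CPM (adjusted p = 0.907). Ces1a, Ces2f and Ces5a did not pass the filter, and Ces5a had no count in any liver.

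Of 16 tested regulators of carboxylesterases, 1 was higher and 3 were lower in ConvD than in GF livers, where 12.8% of all genes were called. The median log2 fold change of the 16 was -0.07. The genes of CAR and PXR were among those that fell. Nr1i3, encoding CAR, fell from 107 ± 13.9 to 70.2 ± 6.75 CPM (edgeR adjusted p = 0.00252), and Nr1i2, encoding PXR, from 75.6 ± 11.7 to 59.4 ± 5.84 CPM (adjusted p = 0.0422). Ahr, the aryl hydrocarbon receptor, fell from 56.3 ± 8.39 to 36.3 ± 4.88 CPM (adjusted p = 0.0181), and Cebpa, encoding a C/EBP factor, rose from 191 ± 20.8 to 247 ± 22.6 CPM (adjusted p = 0.0168). Against GF+SCFA 2 of the 16 were higher and 5 lower, where 18.4% of all genes were called. Between GF+SCFA and GF 0 of the 16 were called by edgeR.

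Among 17 tested targets of PXR and CAR outside the family, 5 were higher and 2 were lower in ConvD than in GF livers, where 12.8% of all genes were called (5.93% higher and 6.9% lower). Cyp3a11, a cytochrome P450 of drug oxidation, rose 3.93-fold (546 ± 195 to 2146 ± 66.9 CPM, adjusted p = 0.00241). At low levels, Cyp2c55 rose 3.05-fold (2.48 ± 0.253 to 7.57 ± 0.560 CPM, adjusted p = 0.00017). The glutathione transferase gene Gsta1, also low, rose 5.80-fold (1.51 ± 0.122 to 8.75 ± 1.39 CPM, adjusted p = 0.00194). Cyp2b10 was not called (11.1 ± 10.1 and 11.3 ± 7.49 CPM, adjusted p = 0.998). Por, the reductase partner of cytochromes P450, fell 1.96-fold (646 ± 70.1 to 329 ± 21.95 CPM, adjusted p = 5.05e-05). The same counts, 5 higher and 2 lower, were found against GF+SCFA, where 18.4% of all genes were called. Between GF+SCFA and GF 0 of the 17 were called.

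Of 15 tested hydrolases of drugs and organophosphates, 1 was higher and 1 lower in ConvD than in GF livers, where 12.8% of all genes were called. Ephx1, microsomal epoxide hydrolase, rose from 235 ± 18.2 to 396 ± 49.3 CPM (adjusted p = 0.000911), a 1.69-fold change beside the 1.79-fold of Ces2e. Bche, butyrylcholinesterase, which is secreted to plasma as is Ces1c, fell from 128 ± 13.0 to 99.1 ± 9.52 CPM (adjusted p = 0.0285).

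Genes of neutral lipid release and VLDL assembly belong to the pathway in which Ces1d acts. Of 16 tested lipases and cofactors, 2 were higher and 1 was lower in ConvD than in GF livers, where 12.8% of all genes were called. Abhd6, a monoacylglycerol lipase, fell from 43.6 ± 4.25 to 33.2 ± 4.72 CPM (adjusted p = 0.0285). Lpl, lipoprotein lipase, rose from 23.9 ± 2.93 to 37.6 ± 9.38 CPM (adjusted p = 0.0488). Pnpla3 rose from 0.230 ± 0.0873 to 2.28 ± 1.33 CPM (adjusted p = 0.0039). Its level was near the floor in GF livers (0.163 to 0.329 CPM) and uneven among ConvD livers (3.01, 3.08 and 0.744 CPM). Of 14 tested genes of VLDL assembly, 2 were higher and 1 lower. Dgat2, which makes triacylglycerol, fell from 547 ± 25.0 to 387 ± 20.5 CPM (adjusted p = 0.000854), and Pla2g12b and Soat2, which makes cholesteryl ester, rose 1.27-fold and 1.31-fold (adjusted p = 0.0124 and 0.0361).

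Against GF+SCFA, where Ces1d was lower and 18.4% of all genes were called, both lists had 2 higher and 2 lower. Mgll, monoacylglycerol lipase, was 1.27-fold lower (adjusted p = 0.0201), and Surf4, a cargo receptor of lipoprotein export, 1.24-fold lower (adjusted p = 0.00884). Abhd6 and Dgat2 were 1.57-fold and 1.35-fold lower (adjusted p = 0.00127 and 0.00115). The genes called higher were Pnpla3 (8.42-fold, from 0.267 CPM in GF+SCFA), Lpl (2.17-fold), Soat2 (1.47-fold) and Pla2g12b (1.27-fold). In GF+SCFA against GF livers 0 genes of either list were called. Of the 2 tested receptors that return proteins to the endoplasmic reticulum, Kdelr2 fell from 73.8 ± 3.75 to 58.6 ± 4.47 CPM in ConvD over GF livers (adjusted p = 0.0108), and Kdelr1 was at 67.0 ± 3.13 and 65.0 ± 1.75 CPM (adjusted p = 0.706).

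The genes whose pattern over the 9 livers was nearest to that of a member were found by the root mean square (RMS) difference of centred log2 CPM, over 9887 genes. Nearest to Ces2e were Ethe1, a mitochondrial sulfur dioxygenase (RMS difference 0.075), Adck3, which acts in coenzyme Q synthesis (0.080), and Slc44a3 (0.091), where the pattern of Ces2e itself had an RMS of 0.402. Among members the nearest to Ces2e was Ces2a (0.203), while the nearest to Ces2a was Ces1f (0.165). Nearest to Ces2a were Efha1 (0.036), Fbxl20 (0.048) and Clic1 (0.052), against its own RMS of 0.233. Nearest to Ces1d were Mme, encoding neprilysin (0.077), Nr1i2 (0.088) and Aifm2 (0.090), against an RMS of 0.261.

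Markers of other cell types differed between the groups. Of all genes tested, 12.8% were called between ConvD and GF livers. Of 7 tested Kupffer cell and macrophage markers 4 were higher and 0 lower in ConvD than in GF livers, with summed levels of 195 to 282 CPM in ConvD, 135 to 174 CPM in GF and 164 to 201 CPM in GF+SCFA livers. Of 7 tested monocyte and neutrophil markers 4 were higher and 0 lower (summed, 52.6 to 79.5 CPM in ConvD, 39.6 to 51.9 CPM in GF and 40.0 to 58.9 CPM in GF+SCFA livers). Most of this sum was Lyz2, at 41.8 to 63.5 CPM in ConvD and 36.6 to 47.5 CPM in GF livers, which was not called (adjusted p = 0.282). The summed markers of periportal hepatocytes were 5282 to 6238 CPM in ConvD, 7737 to 8357 CPM in GF and 7686 to 8743 CPM in GF+SCFA livers, with 1 of 6 higher (Hal) and 1 lower (Pck1) against GF. Most of that difference lay in Pck1, at 1922 to 2283 CPM in ConvD and 3555 to 4154 CPM in GF livers. Those of pericentral hepatocytes were 9358 to 11312 CPM in ConvD, 12234 to 13684 CPM in GF and 12028 to 13245 CPM in GF+SCFA livers, with 0 of 6 higher and 2 lower (Cyp2e1 and Slc1a2). Most of this lay in Cyp2e1, at 6997 to 8108 CPM in ConvD and 9274 to 10581 CPM in GF livers, and Glul was not called. The sums of both zones thus follow single abundant genes. Summed lymphocyte markers were 6.27 to 7.37 CPM in ConvD and 2.58 to 3.65 CPM in the germ-free livers. Of 5 tested, 1 was called higher against GF: Igj, at 2.44 to 3.74 CPM in ConvD and 0.594 to 1.25 CPM in GF livers. Summed adipocyte markers were 7.97 to 11.5 CPM in ConvD and 5.10 to 6.69 CPM in the germ-free livers, and 0 of 2 tested were called. Cfd was at 6.60, 3.95 and 1.38 CPM in ConvD and 0.380 to 1.27 CPM in GF livers. Fabp4 was at 4.85 to 6.59 CPM in ConvD and 4.40 to 5.05 CPM in GF livers. Summed hepatocyte markers overlapped between all groups.

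In the GF+SCFA group, the higher side of the Ces1d call, other lists were low. Summed cholangiocyte markers were 24.8 to 29.3 CPM in GF+SCFA, 41.8 to 47.8 CPM in GF and 40.5 to 62.8 CPM in ConvD livers. Most of this sum was Spp1, at 21.9 to 26.0 CPM in GF+SCFA, 36.9 to 43.0 CPM in GF and 36.8 to 57.1 CPM in ConvD livers. Spp1 was the 1 of 5 tested that was called higher in ConvD than in GF+SCFA, where 18.4% of all genes were called. Summed stellate cell and fibroblast markers were 215 to 251 CPM in GF+SCFA, 258 to 284 CPM in GF and 278 to 287 CPM in ConvD livers, with 4 of 7 higher in ConvD than in GF+SCFA. In GF+SCFA against GF, where 0.0415% of all genes were called, 1 of 7 was lower, Col3a1 (adjusted p = 0.0397). The largest part of the sum was Dcn, at 122 to 135 CPM in GF+SCFA, 125 to 173 CPM in GF and 159 to 169 CPM in ConvD livers. Dcn was not called between GF+SCFA and GF (adjusted p = 0.645). The part of these shifts in the levels of Ces2a, Ces2e and Ces1d was not tested.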

How the data were processed

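Whole-liver RNA was taken through a stranded Illumina TruSeq mRNA preparation, per the labels' protocols. Reads were aligned to the mouse build mm9 by the authors, whose tools were RSEM 1.2.23 and Bowtie2, per the submitters' processing notes. The strand setting is not given in the sources used here. The deposited tables hold, for 20325 gene symbols, expected counts, which the authors did not normalise and in which RSEM divides reads among matching genes, and TPM, which the authors scaled for length and depth. The abundance-weighted length column was read from the same tables. FPKM was not used.

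After rounding to whole numbers, the expected counts were fitted with edgeR 4.0.16 in R 4.3.3. filterByExpr (minimum count 10) left 12037 genes, and library sizes were scaled by TMM. All 9 samples entered 1 quasi-likelihood model with 6 residual degrees of freedom, and p-values were adjusted by Benjamini-Hochberg over all genes tested, with a threshold of 0.05. Adjusted p-values are from this test unless another tool is named. CPM uses the TMM-scaled library total. The biological coefficient of variation was 10.6%. The scripts were tested on simulated data.

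All 10 members are named, and of each other gene list up to 4 tested genes with the smallest adjusted p per comparison, of which some are described. Cell type markers are given by list, and single markers named were chosen after their values were seen. Nearest patterns are the 3 genes with the smallest RMS difference, among those whose expected count averaged 50 or more. The members and the lists were chosen with earlier results of these data known. Alternatives were DESeq2 1.42.0, limma 3.58.1 on log2(TPM + 1), other scalings, no filter, only the groups compared, a replicate block, and leaving out each liver. Promoters are RefSeq's (GRCm38.p6), and no coordinates of mm9 are given.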

Additional observations from a re-analysis of the deposited data

How the results depend on the processing

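The direction and side of the threshold of the members were kept in 228 cases under the other settings and in 250 with 1 liver left out. The sign turned in 9 and 18 cases, and in 3 and 2 cases a member passed that had not (Ces1f, Ces3b and Ces1d, given above). No member call was lost. All sign changes were of members that did not pass either way, and the cause was not tested. The log2 fold change of ConvD against GF was 0.031 for Ces1e with upper-quartile factors, 0.050 with library totals and 0.033 with limma. For Ces1g it was 0.019, 0.037 and 0.020. For GF+SCFA against GF, limma gave -0.016 for Ces1c. For ConvD against GF+SCFA, Ces3b gave 0.00040 with library totals and 0.014 with limma.

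With 1 liver left out, the range for ConvD against GF was -0.12 to 0.025 for Ces1e and -0.14 to 0.013 for Ces1g. For GF+SCFA against GF it was -0.032 to 0.037 for Ces1c, -0.071 to 0.025 for Ces1f and -0.030 to 0.14 for Ces2e. For ConvD against GF+SCFA it was -0.087 to 0.062 for Ces1g, -0.060 to 0.23 for Ces2c and -0.034 to 0.099 for Ces3a. A left-out liver leaves its group with 2, and the pooled spread stands for it.

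Over all genes, ConvD against GF called 1544 genes, 1019 with limma and 849 to 1466 without 1 liver (849 without ConvD replicate 2, 918 without GF replicate 1 and 936 without ConvD replicate 1). GF+SCFA against GF called 5, with 9 from library totals, 24 with no filter, 82 with DESeq2, 1 with limma and 0 to 173 without 1 liver. The 173 were without GF replicate 3. ConvD against GF+SCFA called 2216, and 1383 to 2393 without 1 liver (1383 without GF+SCFA replicate 2, 1400 without GF+SCFA replicate 3 and 1465 without ConvD replicate 2). On summed CPM in place of TPM, the family in ConvD was 94.5% of GF (98.9% on TPM) and 95.9% of GF+SCFA, and the Ces1 sum was 87.0% of GF+SCFA.

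Deviations from the group means correlated at -0.07 to 0.14 between same-numbered samples and at -0.13 to 0.11 between others. Between GF and GF+SCFA the same-numbered pairs stood at 0.086, 0.077 and 0.14, and the others at -0.10 to 0.024. The labels do not say that the numbers pair samples, and correlations from 3 samples per group cannot decide it. With the replicate number as a block, 1514, 5 and 2195 genes were called in the 3 comparisons, and no call of a member changed. Depth was ample for the members, and 3 samples per group limit the precision.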
